A study of Homo sapiens with 24 samples.

Results

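The genes of the DNA replication machinery, from origin recognition to the moving fork, were followed in ovarian cancer cells exposed to the nucleoside conjugate 5-FdU-ECyd. Members were chosen by symbol and not by a measured value, though earlier results of these data were known. Of the 63299 genes in the table of counts, 46 were found by their Ensembl identifier. The groups were A2780 cells (platinum-sensitive) and the isogenic A2780cis cells (platinum-resistant), untreated or given 1 μM 5-FdU-ECyd, and harvested at 6 h or 12 h, which gives 8 groups of 3 libraries. Controls received growth medium without the agent at the same medium change. The A2780cis line was kept resistant by 1 μM cisplatin for a passage at intervals, so that a past cisplatin exposure belongs to every A2780cis library and to no A2780 library, and each line stands for itself alone. The study calls the replicates biological triplicates, and how the cultures were kept apart is not given in the labels, so that p-values measure the spread between these libraries.

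Replication begins when the origin recognition complex (ORC1 to ORC6) marks a start site, where CDC6 and CDT1 load the ring of MCM2 to MCM7, the core of the replicative helicase. Geminin (GMNN) holds CDT1 back after licensing. At the start of S phase CDC45 and the GINS complex join the MCM ring, DNA polymerase alpha with primase lays down primers, the RFC complex loads the sliding clamp PCNA, and polymerases delta and epsilon extend the strands. FEN1 and LIG1 join Okazaki fragments, RPA covers single-stranded DNA, TIMELESS and TIPIN protect the fork, and chromatin assembly factor 1 (CHAF1A, CHAF1B) places histones behind it. Many of these genes are transcribed under control of E2F factors in late G1 phase and S phase, and PCNA is also a known p53 target. Of the components of 5-FdU-ECyd, fluorodeoxyuridine acts on thymidylate synthesis and ethynylcytidine on RNA synthesis.

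Between 11077368 and 21901406 reads per library were counted, and all 46 members passed the filter on low counts, the lowest of them with 105 counts in its poorest library. Levels are CPM, a gene's count relative to its library's TMM-scaled total, given as mean ± SD of 3 libraries. Differences are log2 fold changes (log2 FC) with their standard error from edgeR's quasi-likelihood test, called at an adjusted p of at most 0.05 over 20240 genes. In bulk RNA, fewer cells in a phase of the cell cycle and less RNA per cell cannot be told apart. The lines expressed the mesenchymal gene VIM at 788 to 2769 CPM, whereas the mesenchymal gene CDH2 ranged from 1.21 to 55.6 CPM over the libraries. Of 10 epithelial or ovarian marker genes, 8, PAX8 and EPCAM among them, stayed below 2 CPM in every library. The exceptions, KRT8 and KRT18, ranged from 0.574 to 6.80 CPM and from 0.718 to 28.4 CPM. A library-wide trend moved with time: relative to each gene's mean over all libraries, the median log2 CPM of the genes with the highest exon GC content (at least 57.3%) minus that of the genes with the lowest (at most 41.0%) was -1.10 to -0.45 in the untreated libraries of 6 h, -0.08 to 0.25 in untreated A2780 libraries of 12 h and 0.20 to 0.80 in untreated A2780cis libraries of 12 h. In treated libraries of 6 h this difference was -0.43 to 0.17 in A2780 and -0.36 to 0.14 in A2780cis, above the untreated ones of each line. In treated libraries of 12 h it was -0.17 to 0.36 in A2780 and 0.54 to 1.07 in A2780cis. The trend thus also differed with treatment at 6 h. Therefore, where a correction for exon GC content changed a member's call in a treatment comparison, the corrected value or the changed call is given. The scaling also mattered: with library size alone in place of TMM, the median log2 FC of all genes moved from 0.02 to 0.24 in A2780 at 12 h, from 0.04 to 0.15 in A2780cis at 12 h, and to 0.10 in both lines at 6 h.

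RefSeq promoter windows (GRCh38.p14, 250 bases before to 50 after a start) were held for 40 of the 46 members, in 50 windows. The letters of an E2F site (TTGGCGC and its variant TTGCCGC, as well as TTCGCGC and its variant TTCCCGC, on either strand) were in 31 of these windows, or 62%, against 13% of all 35116 windows. The NF-Y letters CCAAT, on either strand, were in 58% against 34.6%, and those of the CHR element TTTGAA in none of the 50 against 15.2%. An E2F match can share bases with a CCAAT match. Matches from 6 members that moved in different ways after treatment are shown 5′ to 3′ on the gene's strand. The letters of a single E2F match, read on either strand, are in capitals. In MCM6 and ORC1 a further match, the reverse complement of TTCGCGC, overlaps the marked letters and ends in lower case. The windows lie at chr20:5126663-5126692 (PCNA, minus strand), chr2:135876514-135876543 (MCM6, minus), chr1:52404427-52404456 (ORC1, minus), chr19:4402592-4402621 (CHAF1A, plus), chr16:88803755-88803784 (CDT1, plus) and chrX:24693787-24693816 (POLA1, plus).
PCNA: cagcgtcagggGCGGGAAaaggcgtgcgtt
MCM6: attggtcaggtTTGGCGCgaaatctccagc
ORC1: ggccacgccgaTTGGCGCgaagttttcttt
CHAF1A: ggctcgcccaaTTGGCGCgcggactgcggg
CDT1: cgggaaatttgGCGGGAAccgcgcccgcct
POLA1: aacgcgcgtccGCGGGAAggccgggggcgg
The letters TTGGCGC stand in MCM6, ORC1 and CHAF1A, and those of PCNA, CDT1 and POLA1 are the reverse complement of TTCCCGC. Of the 30 members with E2F letters, 9 were up-regulated and 13 down-regulated in A2780 at 12 h, and 5 and 17 in A2780cis. Of the 10 with a window but no such letters, 2 were up-regulated and 3 down-regulated in A2780, and 1 and 4 in A2780cis. Of all genes, 28.6% were up-regulated and 26.1% down-regulated in A2780 at 12 h, and 31.0% and 28.9% in A2780cis. Whether direction differed with the letters was not tested. These are descriptions of letters, and a match does not show that a factor is bound.

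In untreated A2780 cells of 12 h, levels per kb of exon differed over a wide range. PCNA led with 141 ± 9.75 CPM per kb (n = 3), followed by MCM3 (87.7 ± 1.77), MCM7 (77.0 ± 3.30), MCM6 (71.9 ± 3.26) and FEN1 (69.8 ± 1.98). The means of MCM7 and MCM6 lay within the sum of their SDs, as did those of MCM6 and FEN1, whereas MCM3 stood above MCM7 by more than that sum. The lowest levels were those of GINS3 (6.16 ± 0.221), POLA1 (4.80 ± 0.269) and LIG1 (4.67 ± 0.239), the last 2 of which did not differ beyond their SDs. In untreated A2780cis cells of 12 h PCNA again led, with 246 ± 16.9 CPM per kb, and the next 3 genes were again MCM3, MCM7 and MCM6. Lengths are those of all annotated exons together, so that the order would change with the transcripts used.

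After 12 h of treatment, 30 members passed the threshold in A2780 cells, 12 up-regulated and 18 down-regulated, with 54.8% of all genes called in that comparison. In A2780cis cells 31 members did, 8 up-regulated and 23 down-regulated, against 59.9% of all genes. Down-regulated genes made up 26.1% and 28.9% of all genes tested, and up-regulated ones 28.6% and 31.0%. The untreated and treated libraries did not overlap for 29 members in A2780 and 28 in A2780cis, beside 64.0% and 59.6% of all genes. The median log2 FC of the members was -0.08 in A2780 and -0.27 in A2780cis, beside 0.02 and 0.04 over all genes. All members are protein-coding. Among the protein-coding genes tested, 58.6% and 62.6% were called at 12 h, 30.8% and 34.7% down-regulated, with medians of -0.03 and -0.05. After 6 h, 22 members were called in A2780 (15 up-regulated, 7 down-regulated, 29.4% of all genes called) and 21 in A2780cis (7 and 14, 30.7% of all genes called), with medians of 0.14 and -0.07. Up-regulated genes made up 16% and 14.4% of all genes at 6 h and down-regulated ones 13.4% and 16.3%, and the groups did not overlap for 28 and 29 members, beside 41.6% and 43.2% of all genes. Among protein-coding genes, 35.3% and 35.5% were called at 6 h. Without untreated replicate 1 of 6 h, 12 members were called in A2780 at 6 h, and without treated replicate 3 of 6 h, 11 were in A2780cis. Members moved in both directions: at 12 h, 6 members were up-regulated in both lines (PCNA, GINS4, ORC6, RFC2, RFC4, RFC5), 15 were down-regulated in both, and 1, GINS2, was called in opposite directions. The shares of all genes called in both lines or in opposite directions were not worked out, so that these counts cannot be set beside all genes. Scaled by library size alone, the members split into 19 up-regulated and 10 down-regulated in A2780 at 12 h, 22 and 6 in A2780 at 6 h, and 12 and 9 in A2780cis at 6 h. With the GC correction all 30 members called at 12 h in A2780 were still called in the same direction, as were 30 of the 31 in A2780cis, POLE2 being the exception, and 4 further members were called in A2780 and 6 in A2780cis. The same held at 6 h for 14 members of 22 and for 15 of 21. The split then became 15 up-regulated and 4 down-regulated in A2780 and 9 and 10 in A2780cis. For library size alone and for the GC correction, here and below, the shares of all genes called were not worked out. Library size alone also raised the median of all genes, as given above, so that such splits cannot be set beside all genes.

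**Figure D1:**
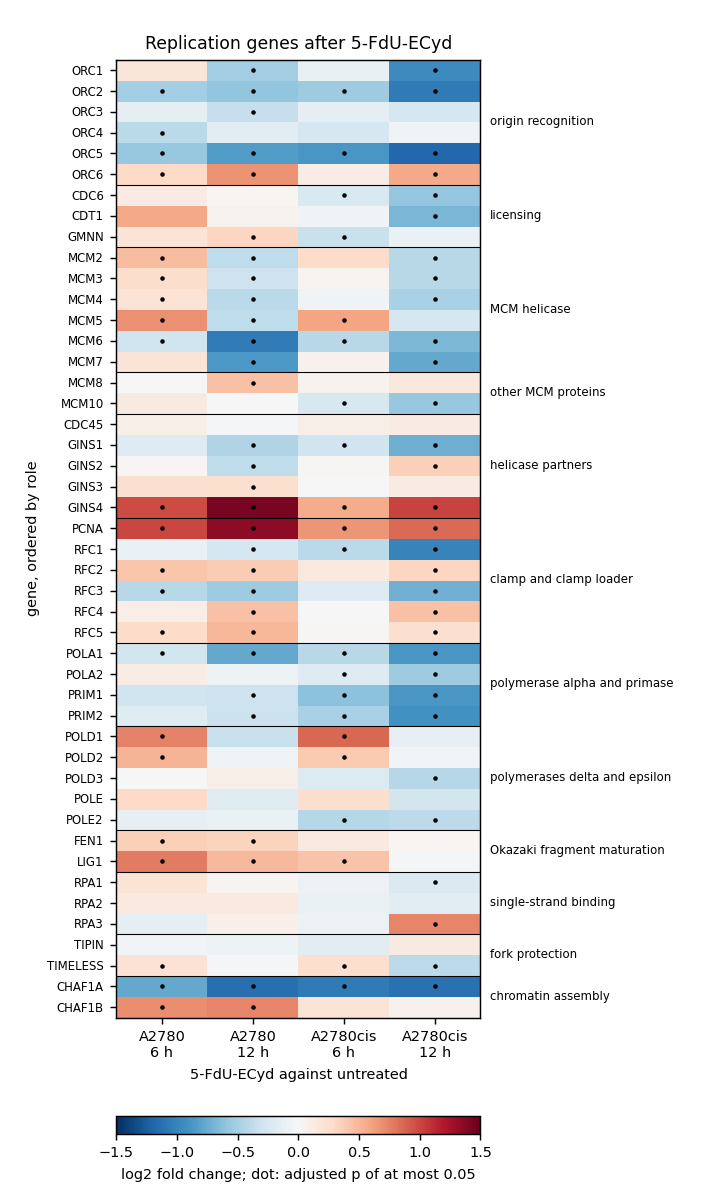
Log2 FC of the 46 replication genes (rows, grouped by role) after 5-FdU-ECyd in A2780 and A2780cis at 6 h and 12 h (columns), as colour from blue (lower in treated cells) to red (higher), with a dot where the adjusted p was at most 0.05. PCNA and GINS4 are red with a dot in all 4 columns, while ORC2, ORC5, MCM6, POLA1 and CHAF1A are blue with a dot in all 4; the 6 h dots of MCM6 and POLA1 in A2780 were lost with the GC correction.

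The sliding clamp PCNA (ENSG00000132646, chromosome 20, 5114953 to 5126626, minus strand, GRCh38) and the GINS subunit GINS4 were the members up-regulated in both lines at both times. In A2780 cells of 12 h, PCNA stood at 210, 201 and 184 CPM in the untreated libraries and at 563, 473 and 471 CPM in the treated ones. All treated libraries lay above all untreated ones, with a log2 FC of 1.34 ± 0.10 (SE, adjusted p = 3.9e-11). In A2780cis cells of 12 h, PCNA went from 370, 340 and 324 CPM to 654, 560 and 654 CPM, a log2 FC of 0.85 ± 0.10 (adjusted p = 6.1e-08). The groups did not overlap here either, and the untreated A2780cis level was already the higher of the lines. The log2 FC at 6 h was 1.01 in A2780 and 0.66 in A2780cis.

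GINS4 had 52.2, 50.8 and 56.3 CPM in untreated A2780 cells of 12 h and 143, 142 and 144 CPM in treated ones, a log2 FC of 1.43 ± 0.08 (adjusted p = 6.1e-14). In A2780cis it had 64.8, 64.4 and 61.5 CPM untreated and 137, 130 and 118 CPM treated, a log2 FC of 1.01 ± 0.08 (adjusted p = 2.2e-11). The treated groups lay far above the untreated ones in both lines, and GINS4 also rose at 6 h (log2 FC of 0.98 and 0.56). Of its annotated exon bases, 23.4% are shared with 2 other genes. Reads over several genes were allowed, and whether they counted in full or as fractions is not given. How much of this signal belongs to the other genes was not tested. The other GINS subunits, with which GINS4 forms a tetramer, changed less or fell. GINS1 was down-regulated at 12 h in both lines (log2 FC of -0.45 and -0.73) and at 6 h in A2780cis (-0.30, not called at -0.16 with the GC correction), GINS3 was up-regulated in A2780 alone (0.24 ± 0.10, adjusted p = 0.038) and had 0.12 in A2780cis (and 0.24 in A2780 at 6 h, called with the GC correction alone), and GINS2 differed between the lines. Their partner CDC45 passed the threshold in none of the 4 treatment comparisons, with log2 FC from -0.02 to 0.12.

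**Figure D2:**
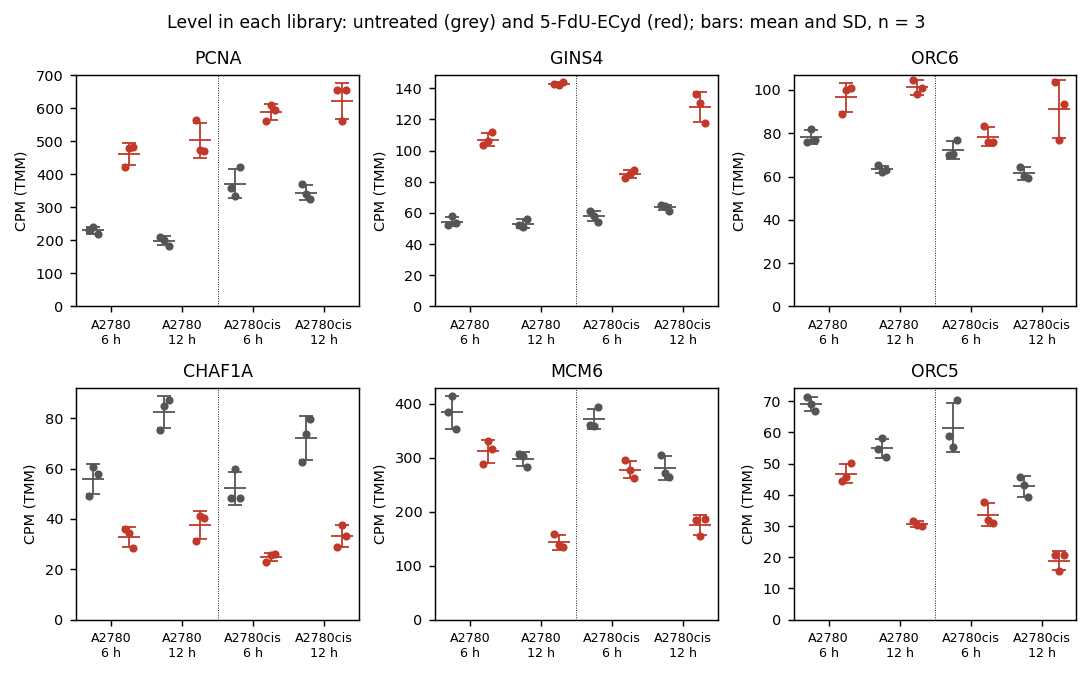
Level in CPM (vertical axis, from 0) of PCNA, GINS4, ORC6, CHAF1A, MCM6 and ORC5 in every library of the 8 groups (horizontal axis, grey untreated, red treated, bars mean and SD of 3 libraries). Treated PCNA and GINS4 libraries lie above the untreated ones of the same line and time, treated CHAF1A, MCM6 and ORC5 libraries below them, and ORC6 separates from its controls at 12 h in both lines.

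Among the subunits of the origin recognition complex, ORC6 was the one up-regulated at 12 h, while ORC1, ORC2 and ORC5 were down-regulated in both lines. ORC6 rose from 65.1, 62.2 and 62.8 CPM to 105, 98.1 and 101 CPM in A2780 at 12 h (log2 FC of 0.67 ± 0.09, adjusted p = 6e-07). In A2780cis it rose from 64.6, 60.4 and 59.2 CPM to 103, 76.9 and 93.4 CPM (0.57 ± 0.09, adjusted p = 5.8e-06). The treated A2780cis libraries spread widely, and the lowest of them still lay above the controls. ORC6 is the subunit most loosely bound to the complex. ORC5, a core subunit, fell from 54.6, 58.1 and 52.1 CPM to 31.7, 30.3 and 30.1 CPM in A2780 at 12 h (log2 FC of -0.84 ± 0.11, adjusted p = 4.9e-07). In A2780cis it fell from 45.8, 43.1 and 39.3 CPM to 20.6, 15.4 and 20.6 CPM (-1.18 ± 0.11, adjusted p = 2.2e-09), the lowest level of ORC5 in any group. ORC5 was already lower at 6 h, with a log2 FC of -0.56 for A2780 and of -0.88 for A2780cis, which became -0.31 and -0.72 with the GC correction and stayed called. ORC6 had 0.30 (called) and 0.12 at 6 h, and the latter was called with the correction (0.24).

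ORC2 fell at both times too, with log2 FC at 12 h of -0.59 in A2780 and -1.06 in A2780cis and at 6 h of -0.51 and -0.54. The ATPase subunit ORC1, whose protein varies over the cell cycle, passed the threshold at 12 h and not at 6 h. In A2780 it went from 56.8, 56.9 and 55.7 CPM to 40.2, 39.3 and 38.4 CPM (log2 FC of -0.52 ± 0.08, adjusted p = 4.8e-06), and in A2780cis from 71.2, 72.2 and 72.4 CPM to 37.2, 35.8 and 38.3 CPM (-0.96 ± 0.08, adjusted p = 1.8e-10). The treated libraries of both lines lay between 35.8 and 40.2 CPM, below all untreated ones, and untreated A2780cis had stood above untreated A2780. At 6 h its log2 FC was 0.18 and -0.11, with adjusted p of 0.089 and 0.32. ORC3 passed the threshold in A2780 at 12 h (-0.35), and ORC4 at 6 h in A2780 alone (-0.41), a call that was lost with the GC correction (-0.16). At 12 h ORC4 passed in neither line (-0.17 and -0.07), and with the GC correction it was called up-regulated in A2780cis (0.20).

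Of the 3 licensing genes, CDC6 responded differently in the lines by the test of the difference given below, and CDT1 and GMNN did not pass that test. CDC6, which loads the MCM ring, had 151, 144 and 143 CPM untreated and 162, 144 and 141 CPM treated in A2780 at 12 h, overlapping groups with a log2 FC of 0.03 ± 0.09 (adjusted p = 0.79). In A2780cis it fell from 170, 149 and 143 CPM to 112, 93.6 and 104 CPM (-0.58 ± 0.09, adjusted p = 4.1e-06). CDT1, the other loader, was expressed low, with 15.6, 18.1 and 21.7 CPM against 12.3, 21.5 and 23.5 CPM in A2780 at 12 h (log2 FC of 0.05 ± 0.22, adjusted p = 0.85), and the sign of this value changed when single libraries were left out. In A2780cis, CDT1 went from 26.7, 34.0 and 45.1 CPM to 18.4, 28.8 and 18.4 CPM (-0.69 ± 0.21, adjusted p = 0.0071), and the groups overlapped. Geminin, the CDT1 inhibitor, was up-regulated in A2780 at 12 h (0.32 ± 0.12, adjusted p = 0.024), a call lost in 3 of 6 fits with a library left out, and had -0.10 in A2780cis. At 6 h the log2 FC of CDC6, CDT1 and GMNN was 0.13, 0.57 and 0.21 in A2780, none of them past the threshold. In A2780cis it was -0.23, -0.06 and -0.33, with CDC6 and GMNN called, calls that were lost with the GC correction (-0.11 and -0.18). With that correction CDC6 and GMNN passed in A2780 at 6 h (0.22 and 0.37) and CDT1 in A2780cis at 6 h (-0.38).

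The helicase subunits MCM2 to MCM7 shared a fall at 12 h and differed in its size. All 6 were down-regulated in A2780, and all but MCM5 in A2780cis. MCM6 (ENSG00000076003, chromosome 2, 135839626 to 135876443, minus strand) fell from 307, 303 and 282 CPM to 159, 137 and 134 CPM in A2780 (log2 FC of -1.05 ± 0.10, adjusted p = 1.2e-09). In A2780cis it fell from 305, 272 and 263 CPM to 185, 155 and 186 CPM (-0.68 ± 0.10, adjusted p = 1.2e-06). MCM7 fell from 374, 371 and 401 CPM to 206, 215 and 211 CPM in A2780 (-0.86 ± 0.10, adjusted p = 3.6e-08) and from 367, 374 and 384 CPM to 207, 213 and 243 CPM in A2780cis (-0.76 ± 0.10, adjusted p = 1.7e-07). For both subunits, no treated library reached an untreated one of its line. The other subunits changed less, with log2 FC of -0.38, -0.32, -0.40 and -0.39 for MCM2, MCM3, MCM4 and MCM5 in A2780 and -0.41, -0.42, -0.49 and -0.25 in A2780cis. Scaled by library size alone, the log2 FC of MCM2, MCM3 and MCM5 in A2780 were -0.16, -0.09 and -0.16 and that of MCM2 in A2780cis was -0.30, none of them past the threshold, while those of MCM4, MCM6 and MCM7 kept theirs. Of the exon bases of MCM2, 23.6% are shared with 1 other gene. The fall of MCM5 in A2780 lost its call in 2 of 6 fits with a library left out.

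At 6 h these genes looked different. In A2780, MCM2, MCM3, MCM4 and MCM5 were up-regulated (log2 FC of 0.46, 0.26, 0.21 and 0.69), MCM6 was down-regulated (-0.30) and MCM7 had 0.19 (adjusted p = 0.14). MCM5 went from 50.5, 70.2 and 78.0 CPM to 125, 105 and 90.1 CPM in A2780 at 6 h (0.69 ± 0.14, adjusted p = 0.0006) and from 59.8, 53.7 and 54.9 CPM to 73.3, 83.8 and 96.3 CPM in A2780cis (0.59 ± 0.14, adjusted p = 0.0023), with no overlap in either line. MCM5 was the only subunit up-regulated in A2780cis at 6 h, where MCM6 fell (-0.42 ± 0.10, adjusted p = 0.0016). Much of this differed with the GC correction. In A2780 the calls of MCM2, MCM3 and MCM6 were lost (0.18, 0.16 and -0.17), while those of MCM4 and MCM5 (0.22 and 0.44) were kept. The value of MCM7 turned to -0.11 in A2780 and -0.16 in A2780cis, neither past the threshold. MCM4 in A2780 at 6 h also lost its call when any of the 6 compared libraries was left out, and MCM3 and MCM6 each did for 3 of the 6. At 12 h the corrected values of the MCM2 to MCM7 genes ranged from -0.42 to -1.0 for A2780 and from -0.38 to -0.91 for A2780cis, all past the threshold.

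**Figure D3:**
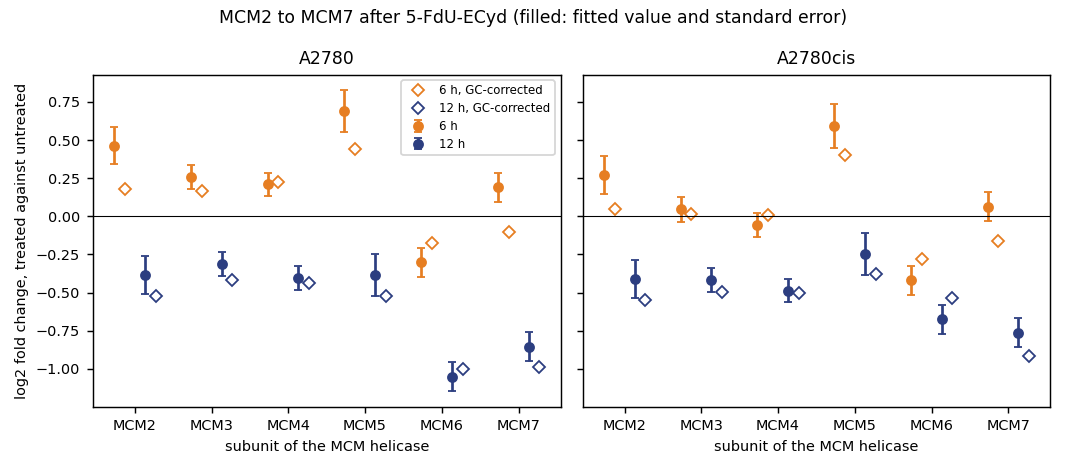
Log2 FC after 5-FdU-ECyd (vertical axis) of MCM2 to MCM7 (horizontal axis) in A2780 and A2780cis at 6 h (orange) and 12 h (blue), as fitted with standard error (filled circles) and after the GC correction (open diamonds). All 12 h values lie below 0, with MCM6 at -1.05 and MCM7 at -0.86 in A2780, while MCM5 lies above 0 at 6 h in both lines.

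Of the MCM relatives outside the ring, MCM8, a helicase of homologous recombination, was up-regulated in A2780 at 12 h (log2 FC of 0.44 ± 0.08, adjusted p = 0.0001) and had 0.16 in A2780cis, where it was called with the GC correction (0.30 at 12 h and 0.19 at 6 h). With 33.3% of its exon bases shared with 1 other gene, its level is uncertain. MCM10, which helps to start the fork, was down-regulated in A2780cis at 12 h (-0.57 ± 0.08, adjusted p = 1.5e-06) and had -0.00 in A2780 (adjusted p = 0.98). At 6 h it had -0.24 in A2780cis, called, and 0.13 in A2780, not called, and with the GC correction -0.13, not called, and 0.21, called.

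The clamp loader was split within the complex. RFC2, RFC4 and RFC5 rose at 12 h in both lines (log2 FC of 0.38, 0.44 and 0.50 in A2780 and 0.32, 0.44 and 0.25 in A2780cis), whereas RFC1 and RFC3 fell. RFC1, the large subunit, had 146, 145 and 121 CPM untreated and 126, 110 and 108 CPM treated in A2780, overlapping groups with a log2 FC of -0.26 ± 0.09 (adjusted p = 0.022). In A2780cis it fell from 131, 116 and 111 CPM to 61.4, 56.8 and 60.5 CPM (-1.0 ± 0.10, adjusted p = 2.1e-09), with a wide gap between the groups. RFC3 had a log2 FC of -0.54 for A2780 and of -0.72 for A2780cis. Thus, 3 of the 5 loader subunits moved in the direction of PCNA at 12 h and 2 in the other.

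The 4 subunits of polymerase alpha and primase were down-regulated in A2780cis at both times. At 12 h the log2 FC was -0.87 for the catalytic subunit POLA1, -0.54 for POLA2, -0.88 for PRIM1 and -0.91 for PRIM2, and at 6 h -0.42, -0.20, -0.62 and -0.48. POLA1 also fell at 6 h in A2780 (-0.28), a call that was lost with the GC correction (-0.09). In A2780 at 12 h, POLA1 fell from 78.0, 76.0 and 69.9 CPM to 45.8, 43.1 and 42.9 CPM (-0.76 ± 0.09, adjusted p = 2e-07), a change close in size to that in A2780cis. The primase subunits fell less there (PRIM1 -0.31, PRIM2 -0.32), and POLA2 had -0.08 (adjusted p = 0.38), which with the GC correction was called (-0.15). PRIM1 in A2780cis at 12 h went from 67.2, 56.7 and 50.04 CPM to 36.6, 28.2 and 30.1 CPM, with no overlap. PRIM2 has near-identical copies in the genome, among which reads were split as fractions, and 19.1% of the exon bases of PRIM1 are shared with 3 other genes and 21.3% of those of POLA2 with 2.

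Few calls fell on the polymerases that extend the strands at 12 h. Of the 5 genes of polymerases delta and epsilon, none was called in A2780, and POLD3 (-0.43 ± 0.08, adjusted p = 6.5e-05) and POLE2 (-0.39 ± 0.14, adjusted p = 0.016) were called in A2780cis. With the GC correction POLD1 (-0.30), POLD2 (-0.19) and POLE (-0.32) were called down-regulated in A2780 at 12 h, as was POLE in A2780cis (-0.41). At 6 h, POLD1 and POLD2 were up-regulated in both lines (log2 FC of 0.75 and 0.52 in A2780, 0.86 and 0.39 in A2780cis). POLD1 is, at 64.8%, the member with the highest exon GC content, and with the GC correction its log2 FC at 6 h was 0.27 in A2780 (adjusted p = 0.076) and 0.54 in A2780cis (adjusted p = 0.0007). The corrected value of POLD2 was 0.25 in A2780, still called, and 0.19 in A2780cis, no longer called, and POLE2 lost its calls in A2780cis at 12 h (-0.16) and at 6 h (-0.27, against -0.43 as fitted). Leaving out a library removed the 6 h call of POLD1 in 3 of 6 fits in A2780 (lowest 0.49, without untreated replicate 1) and in 2 of 6 in A2780cis. The ligase LIG1 rose in A2780 at 12 h (0.49 ± 0.12, adjusted p = 0.0015) and at 6 h (0.77 ± 0.13, adjusted p = 6.2e-05). In A2780cis it was higher at 6 h (0.42) and had -0.03 at 12 h. The flap nuclease FEN1 rose in A2780 at both times (0.34 and 0.36) and passed in A2780cis at neither (0.03 and 0.15), and its call in A2780 at 6 h was lost with the GC correction.

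Of the RPA subunits, the smallest, RPA3, was up-regulated in A2780cis at 12 h, from 29.2, 26.0 and 23.0 CPM to 49.5, 35.4 and 44.8 CPM (log2 FC of 0.73 ± 0.14, adjusted p = 8e-05). In A2780 the groups overlapped, with 46.4, 47.9 and 46.5 CPM against 59.8, 43.7 and 45.3 CPM (0.08 ± 0.14, adjusted p = 0.66). RPA2 passed in none of the 4 treatment comparisons, and RPA1 in A2780cis at 12 h alone (-0.21). With the GC correction RPA2 was called down-regulated in A2780cis at 12 h (-0.23) and RPA1 up-regulated in A2780 at 6 h (0.18). The fork protein TIMELESS was up-regulated at 6 h (0.21 in A2780, where the GC correction took the call away, and 0.26 in A2780cis) and down-regulated at 12 h in A2780cis (-0.40), whereas its partner TIPIN passed in none of the 4 as fitted and in A2780cis at 12 h with the GC correction (0.24). Of the exon bases of TIPIN, 21.1% are shared with 1 other gene.

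The subunits of chromatin assembly factor 1 moved apart. CHAF1A (ENSG00000167670, chromosome 19, 4402640 to 4445018, plus strand) fell from 75.4, 85.0 and 87.1 CPM to 31.1, 41.2 and 40.4 CPM in A2780 at 12 h (log2 FC of -1.13 ± 0.13, adjusted p = 4.1e-08). In A2780cis it fell from 62.6, 73.7 and 79.7 CPM to 29.0, 37.6 and 33.0 CPM (-1.12 ± 0.13, adjusted p = 4.4e-08), close to the change in A2780. The fall was present at 6 h (-0.77 and -1.06), and CHAF1A had the lowest or second lowest log2 FC of the members in each treatment comparison. CHAF1B rose in A2780 instead, from 43.4, 46.6 and 45.6 CPM to 79.9, 78.0 and 68.2 CPM at 12 h (0.74 ± 0.10, adjusted p = 4.7e-07), with 0.70 at 6 h. In A2780cis it stood at 54.4, 55.5 and 56.4 CPM untreated and 55, 58.4 and 59.7 CPM treated at 12 h (0.06 ± 0.10, adjusted p = 0.62), and at 6 h its log2 FC there was 0.21, called with the GC correction alone (0.24).

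Whether the lines differed in their 12 h response was tested by the interaction of line and treatment, in which 17 members passed the threshold (23.7% of all genes called). For 14 the log2 FC in A2780cis was below that in A2780 (14.0% of all genes), and for 3 above it (9.70%). The median interaction was -0.25 over the members and -0.04 over all genes. Among protein-coding genes, as all members are, 27.4% were called, 18.0% lower and 9.33% higher in A2780cis, with a median of -0.09. GINS2 showed the largest positive difference (0.74 ± 0.15, adjusted p = 0.00081), since it fell in A2780 from 85.5, 84.6 and 86.0 CPM to 70.9, 62.8 and 62.4 CPM and was higher in A2780cis, at 65.4, 57.5 and 57.5 CPM untreated against 77.2, 63.2 and 90.8 CPM treated. In A2780 the groups did not overlap, and in A2780cis they did, with 1 treated library below the highest control. RPA3 followed with 0.65 ± 0.20 (adjusted p = 0.017) and MCM6 with 0.38 ± 0.13 (adjusted p = 0.044). MCM6 fell in both lines and less in A2780cis. Its call was lost in 8 of 12 fits with a library left out.

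The negative differences were of several kinds. RFC1 (-0.74 ± 0.13, adjusted p = 0.00033), PRIM1, PRIM2, ORC1 and ORC2 fell in both lines and more in A2780cis. CDC6 (-0.61 ± 0.13, adjusted p = 0.0011), MCM10, POLA2, POLD3 and TIMELESS fell in A2780cis and had log2 FC between -0.08 and 0.09 in A2780. CHAF1B (-0.68 ± 0.14, adjusted p = 0.00088) and LIG1 rose in A2780 and had 0.06 and -0.03 in A2780cis. PCNA and GINS4 rose in both lines and less in A2780cis (interaction of -0.49 and -0.42). With the GC correction, all 17 members were still called in the same direction, and CDT1 (-0.77), FEN1 (-0.30), RPA1 (-0.23) and ORC4 (0.29) were called in addition. At 6 h, 1 member passed, GINS4 (-0.42 ± 0.11, adjusted p = 0.03), where 3.07% of all genes did and 2.38% were lower. This call was lost in 8 of 12 fits with a library left out, while 7 members passed with the GC correction.

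**Figure D4:**
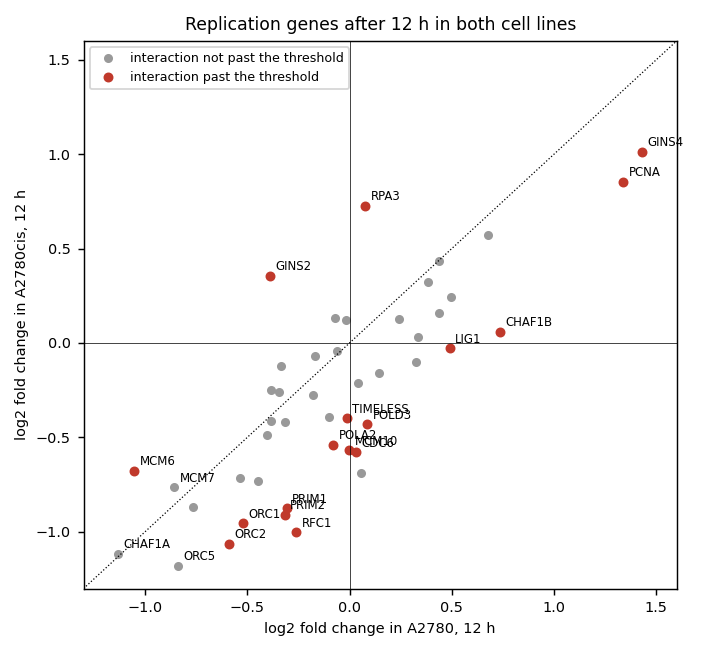
Log2 FC of the 46 replication genes at 12 h in A2780 (horizontal axis) and A2780cis (vertical axis), in red where the interaction of line and treatment passed the threshold, with a dotted line where both values are equal. Most red points lie below the line, GINS2 and RPA3 lie above it, and CHAF1A, MCM7 and ORC5 lie low on both axes.

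The growth of the response was tested by comparing the log2 FC at 12 h with that at 6 h. It differed for 13 members in A2780 (10 lower at 12 h, 23.7% of all genes called) and for 19 in A2780cis (16 lower, 24% of all genes called). Of all genes, 13.0% and 13.6% were lower and 10.7% and 10.3% higher. Among protein-coding genes, 27.1% were called in each line, with 16.6% and 17.4% lower. In A2780 the largest falls were those of POLD1 (-1.08 ± 0.34, adjusted p = 0.024), MCM5 (-1.08 ± 0.20, adjusted p = 0.00037) and MCM7 (-1.05 ± 0.13, adjusted p = 7.7e-06). In A2780cis they were POLD1 (-0.98 ± 0.34, adjusted p = 0.039), ORC1 (-0.84 ± 0.11, adjusted p = 1.4e-05) and MCM5 (-0.84 ± 0.20, adjusted p = 0.0031). GINS4 and ORC6 increased further between the times in both lines (0.45 and 0.37 in A2780, 0.46 and 0.45 in A2780cis), MCM8 did in A2780 (0.43) and RPA3 in A2780cis (0.82). With a library left out, the call was lost in 8 of 12 fits for ORC6 in A2780, in 8 of 12 for POLD1 in A2780cis (values from -1.26 to -0.79) and in 3 of 12 for POLD1 in A2780. With the GC correction all 13 and all 19 were still called in the same direction, in totals of 18 and 26. The value of POLD1 became -0.57 in A2780 and -0.66 in A2780cis, and that of MCM7 in A2780 became -0.88. Scaled by library size alone, the calls in A2780 split into 7 higher and 7 lower at 12 h. All these values rest on the untreated libraries of both times, which differed among themselves as described next.

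Untreated cells of 12 h differed from those of 6 h in 20 members in A2780 (10 up-regulated, 10 down-regulated, 26.9% of all genes called) and in 27 in A2780cis (8 and 19, 39.9% of all genes called). Of all genes, 16.6% and 18.0% were higher at 12 h and 10.3% and 21.9% lower, and the times did not overlap for 29 and 31 members, beside 46.1% and 48.9% of all genes. Among protein-coding genes, 33.2% and 48.3% were called. The count in A2780 was 7 without replicate 3 of 12 h, 8 without replicate 1 of 6 h and 13 without replicate 2 of 6 h, and that in A2780cis was 17 without replicate 3 of 12 h. The differences followed exon GC content. Over the 46 members, Spearman's rho between exon GC content and log2 FC was 0.73 in A2780 and 0.83 in A2780cis, beside 0.65 and 0.67 over 19889 genes, a description across genes of the same libraries. Of the 9 members with an exon GC content of at least 55% (CDT1, MCM2, MCM5, MCM7, POLD1, POLD2, POLE, LIG1, CHAF1A), 7 were higher at 12 h in A2780 and 8 in A2780cis, and none was lower in either. POLD1 went from 11.1, 17.6 and 23.5 CPM at 6 h to 36.1, 41.7 and 41.6 CPM at 12 h in A2780 (log2 FC of 1.21 ± 0.25, adjusted p = 0.0019) and from 16.2, 12.2 and 13.8 CPM to 34.9, 51.3 and 61.8 CPM in A2780cis (1.81 ± 0.25, adjusted p = 3.2e-05). CDT1 went from 7.61, 9.94 and 13.5 CPM to 15.6, 18.1 and 21.7 CPM in A2780 (0.85) and from 12.8, 11.4 and 12.2 CPM to 26.7, 34.0 and 45.1 CPM in A2780cis (1.53). The lowest values were those of GINS2 (-0.39), MCM8 (-0.38) and MCM6 (-0.37) in A2780 and of RPA3 (-0.65), TIPIN (-0.54) and ORC5 (-0.53) in A2780cis, while CHAF1A (0.57) in A2780 and MCM5 (0.90) in A2780cis came after POLD1 and CDT1. Scaled by library size alone, the calls in A2780cis split into 16 up-regulated and 5 down-regulated.

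After the GC correction 9 members were called in A2780 and 13 in A2780cis, with 7 of the original 20 and 7 of the original 27 among them, and the split in A2780cis was 12 up-regulated and 1 down-regulated. POLD1 was kept at 0.47 and 0.72, and CDT1 was kept in A2780cis (0.50) and lost in A2780 (0.13). Of the 19 members down-regulated in A2780cis, RPA3 alone was still called. In the treatment comparisons at 6 h, rho over the members was 0.68 in A2780 and 0.67 in A2780cis (0.47 and 0.34 over all genes), and at 12 h it was 0.10 and 0.17. The part of this trend in the differences between the groups at 6 h was not tested beyond the corrected values given.

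**Figure D5:**
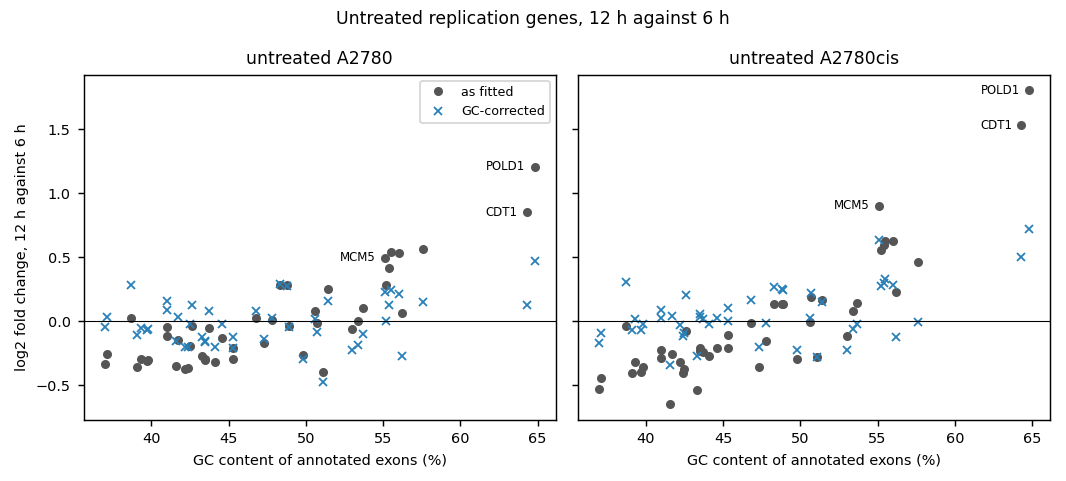
Log2 FC of the 46 replication genes in untreated cells, 12 h against 6 h (vertical axis), against the GC content of their annotated exons (horizontal axis, percent), in A2780 and A2780cis, as fitted (circles) and after the GC correction (crosses). The fitted values climb with GC content up to POLD1 (1.21 and 1.81), and the corrected ones lie closer to 0.

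Untreated, the resistant line differed from its parent in 19 members at 12 h (8 higher and 11 lower in A2780cis, 52.9% of all genes called) and in 14 at 6 h (5 and 9, 47.9% of all genes called). Of all genes, 25.4% and 25.0% were higher and 27.5% and 22.9% lower, and the lines did not overlap for 24 and 15 members, beside 62.3% and 52.0% of all genes. Among protein-coding genes, 58.4% and 54.1% were called. The share of members called thus lay below that of all genes at both times. RFC3 had 115, 110 and 97.4 CPM in A2780 and 50.7, 45.7 and 37.1 CPM in A2780cis at 12 h (log2 FC of -1.27 ± 0.12, adjusted p = 7.1e-10), and -1.22 at 6 h. TIMELESS had 182, 187 and 199 CPM against 92.6, 91.7 and 99.9 CPM (-1.0 ± 0.08, adjusted p = 6.7e-11), and -0.91 at 6 h. POLD3 had -0.97 and -0.78. In the other direction, PCNA was higher in A2780cis by 0.80 ± 0.10 at 12 h (adjusted p = 1.9e-07) and 0.69 at 6 h, and POLD2 by 0.69 and 0.60. MCM8 was higher by 0.60 and 0.54, with the uncertainty given above. CDT1 was higher at 12 h (0.93 ± 0.21, adjusted p = 0.00067) and had 0.25 at 6 h (adjusted p = 0.44). The MCM2 to MCM7 genes did not pass the threshold at either time, with log2 FC from -0.24 to 0.18, though with the GC correction MCM5 and MCM7 were called lower in A2780cis at 6 h (-0.27 and -0.23). The calls at 12 h split into 13 higher and 9 lower with that correction, and those at 6 h into 4 and 17 by library size alone. All the differences named here as called were also called with the GC correction.

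A further 33 replication genes outside the set were examined in the same fit. At 12 h, 3 were up-regulated and 11 down-regulated in A2780, and 5 and 19 in A2780cis, with medians of -0.10 and -0.35. That is 42.4% and 72.7% of them called, beside 54.8% and 59.9% of all genes. At 6 h, 6 were up-regulated and 8 down-regulated in A2780, and 6 and 12 in A2780cis, or 42.4% and 54.5% called beside 29.4% and 30.7% of all genes. Scaled by library size alone, the split in A2780 at 12 h was 12 and 8. The histone chaperones ASF1A and ASF1B moved apart: at 12 h ASF1B had log2 FC of 1.47 for A2780 and of 1.18 for A2780cis, and ASF1A of -1.45 and -1.23. The accessory polymerase delta subunit POLD4 had 1.12 and 1.88, from untreated means of 9.10 and 8.66 CPM. The topoisomerase TOP2A, which is most abundant in G2 phase, had -1.13 and -1.99, and TOP1 had -1.05 and -1.58. At 6 h ASF1B (1.05 and 0.71), TOP2A (-1.27 and -0.86) and ASF1A (-0.93 and -0.73) had moved in the same directions, POLD4 was higher in A2780 (0.69), RECQL4 in A2780cis (0.67) and TOP1 lower in A2780cis (-0.77). Of these, RECQL4 lost its call in 4 of 6 fits with a library left out and POLD4 in 2 of 6, with 0.42 for POLD4 without untreated replicate 1.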

How the data were processed

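Per the labels and the study's supplement, the authors trimmed reads of total RNA libraries, aligned them with STAR 2.5.2b to GRCh38.p7 and counted them on exons with featureCounts. Multi-mapping reads and overlaps of several genes were allowed, with fractional counts. Whether the fractions also held for overlaps is not given. The strand setting is not given in the sources used here, and the labels describe single reads where the paper's settings are for paired ones. The deposited values are these expected counts, not normalized. They were rounded and tested with edgeR 4.0.16 in R 4.3.3 (filterByExpr with minimum count 10 and minimum total 15, TMM, quasi-likelihood test, 1 coefficient per group, 16 residual degrees of freedom, Benjamini-Hochberg over 20240 genes, two-sided). The SE was taken as log2 FC, without sign, over the root of the F statistic. Positions, exon lengths and exon GC are from GENCODE release 44. The GC correction removed, per library, a spline of log2 CPM on exon GC (5 degrees of freedom) as an offset and was added after seeing the data. On simulated data of the 12 h A2780 comparison, 138 of 190 genes changed by a log2 value of 1 and 5 of 19043 unchanged genes were called. The simulation gave every gene the same spread between replicates, few changed genes and no GC trend. Its rates therefore need not hold for the measured libraries. Replicates differed beyond counting noise (chi-square per degree of freedom of at least 2.24). The members, the further genes and the tests were chosen with earlier results of these data known. Named genes were the 4 largest changes per direction among called members in each treatment comparison, 3 in the others, 2 among the further genes, with MCM2 to MCM7, PCNA, CDC6, CDT1, GMNN and ORC1 throughout. Other members were named by role after their values were seen. Alternatives were size factors as in DESeq2 1.42.0, library size alone, no filter, counts not rounded, compared samples alone, the DESeq2 Wald test, a replicate block, and each library left out. Figures were drawn with matplotlib 3.10.9.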

Additional observations from a re-analysis of the deposited data

Results flagged for a closer look

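The results below are those where the same contrast differed between the lines or between the times by a test of the difference itself. Between the lines at 12 h, 17 members differed (23.7% of all genes called), among them GINS2 (0.74), RPA3 (0.65), MCM6 (0.38), RFC1 (-0.74), CHAF1B (-0.68) and CDC6 (-0.61), as log2 FC in A2780cis minus that in A2780. Between the lines at 6 h, 1 member differed, GINS4 (-0.42), where 3.07% of all genes were called. Between 12 h and 6 h, the response of A2780 differed for 13 members (23.7% of all genes called), with GINS4 (0.45), MCM8 (0.43) and ORC6 (0.37) higher at 12 h and POLD1 (-1.08), MCM5 (-1.08) and MCM7 (-1.05) lower. In A2780cis it differed for 19 members, with RPA3 (0.82), GINS4 (0.46) and ORC6 (0.45) higher at 12 h and POLD1 (-0.98), ORC1 (-0.84) and MCM5 (-0.84) lower. With a library left out, 8 of 12 fits lost the call of GINS4 and MCM6 between the lines, of ORC6 in A2780 and of POLD1 in A2780cis. The call of POLD1 in A2780 was lost in 3 of 12, that of RPA3 between the lines in 2, and those of MCM8 in A2780 and ORC6 in A2780cis in 1. The smaller values of POLD1 with the GC correction are given above. With 3 libraries per group, single libraries were not tested for standing apart.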

How the results depend on the processing

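Over all alternatives run, the count of genes past the threshold stayed within 1.5 times its reported value in 218 of 248 cases. For single genes and medians, 1768 of 1922 values kept their direction and side of the threshold. The members called in the interaction at 6 h, 1 as reported, numbered 0 in a fit of the compared samples alone and with no filter on low counts, 3 with the DESeq2 Wald test, 3 with the replicate block, 7 with the GC correction, and 0 to 2 with a library left out. Untreated A2780 of 12 h against 6 h gave 12 members with no filter, 9 with the GC correction and 7 to 20 with a library left out. Untreated A2780cis gave 17 in a fit of the compared samples alone, 16 with no filter, 13 with the GC correction and 17 to 29 with a library left out. With a library left out, the treatment counts at 6 h ranged from 12 to 19 in A2780 (12 without untreated replicate 1) and from 11 to 19 in A2780cis (11 without treated replicate 3), and those of the further genes from 7 to 15 (7 without untreated and 8 without treated replicate 1) and from 8 to 19 (8 without treated replicate 3, 11 without treated and 10 without untreated replicate 2). At 12 h they ranged from 24 to 27 and from 28 to 32. Values that changed sign lay between -0.10 (GMNN in A2780cis at 12 h) and 0.19 (MCM7 in A2780 at 6 h) as reported and were not called. With a library left out, CDC6 in A2780 at 12 h ranged from -0.0471 to 0.0639, CDT1 there from -0.129 to 0.265 (with -0.0716 and -0.0405 between), GMNN in A2780cis at 12 h from -0.251 to 0.0543 and MCM3 in A2780cis at 6 h from -0.0030 to 0.0938. By library size alone CDT1 had 0.0438 and MCM4 0.0394 in A2780cis at 6 h. With the GC correction GMNN had 0.0870 in A2780cis at 12 h, MCM4 0.0094 in A2780cis at 6 h, and MCM7 at 6 h -0.105 in A2780 and -0.164 in A2780cis. The cause was not tested.

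Same-numbered libraries deviated together little (correlations of their deviations from -0.25 to 0.31, over 0.1 in 1 of 12 pairs). At 12 h, though, replicate 1 had the lowest value of the GC trend in each group (-0.08, -0.17, 0.20 and 0.54). Whether numbers pair samples cannot be told from 3 libraries per group. Beyond the interaction at 6 h, the replicate block brought CDT1 in A2780 at 6 h past the threshold (log2 FC of 0.60) and moved no other count by over 1.5 times. CDT1 and POLD1 had the largest standard errors of the members, and 3 libraries per group limit all values.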
